A study of Mus musculus with 8 samples.

Results

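The 10 genes described here encode the main parts of MHC class I antigen presentation in the mouse. They are 5 heavy chains (H2-D1, H2-K1, H2-T3, H2-T23 and H2-M3), the shared light chain B2m, the peptide transporter subunits Tap1 and Tap2, the loading bridge Tapbp and the transcriptional co-activator Nlrc5. They were chosen by symbol out of 33641 gene symbols, with their TPM across the 4 genotypes of the study already known. TPM is a share of all transcripts in a library on a fixed total, corrected for transcript length, so levels of different genes can be set side by side. All 10 were among the 16064 genes kept for testing. Because these same values selected the genes, the levels and differences of the 10 genes are given as a description, and their calls are not evidence for the choice.

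Class I molecules carry peptides from inside the cell to its surface. Proteasomes cut proteins into peptides, the TAP transporter moves the peptides into the endoplasmic reticulum, and tapasin (Tapbp) holds an empty heavy chain paired with B2m beside the transporter until a peptide binds. H2-K1 and H2-D1 are the classical heavy chains that present to CD8+ T cells, while H2-T23 (Qa-1), H2-M3 and H2-T3 (the TL antigen) are non-classical chains with narrower partners. Transcription of the classical genes depends on NLRC5 and on interferon and NF-kappaB signals, and interferon raises nearly the whole pathway in most cell types. Class I on blood stem cells is read by T cells and natural killer cells.

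The cells were haematopoietic stem cells sorted from bone marrow of mice labelled C57BL/6. Each of 4 genotypes had 2 libraries. They were Wild type, Scribble-/- (Scribble null below), Taz-/-;Yap1-/- (Yap1 Taz null) and Scribble-/-;Taz-/-;Yap1-/- (triple null). Scribble is a polarity scaffold, and Yap1 and TAZ (gene symbol Wwtr1) are Hippo pathway co-activators. All groups, the wild type included, carried Mx1-Cre, a recombinase driven by an interferon-responsive promoter, and all received 6 intraperitoneal injections of 10 mg/kg polyI:C every other day, per the labels' protocols. PolyI:C is a double-stranded RNA mimic that itself induces interferon. Cells were taken 1 week after induction, so the controls share the exposure to interferon. The labels give no age or sex and do not say that the libraries of a group came from separate mice, so the p-values below measure the spread between libraries, which may be technical. The design names the wild type as reference.

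Several facts of the libraries bear on every value below. Between 14024 and 14970 symbols reached 1 TPM per library, and read depth is unknown from TPM. Correlations of log2 values across genes were 0.953 to 0.965 within groups and 0.926 to 0.958 between groups. Scrib, Yap1 and Wwtr1 were not called lower in the libraries labelled null for them. Whole-gene TPM does not check the loss of single exons, so these levels do not check the labels. H2-Ea-ps, an MHC class II gene that C57BL/6 mice are known not to transcribe, was at 49.5 and 64.3 TPM in the wild-type libraries, which goes against their strain label, and at 0.133 to 1.09 TPM in the null libraries. Ddx3y, Eif2s3y and Kdm5d, which lie on the Y chromosome, were low in both Yap1 Taz null libraries. Eif2s3y was at 4.16 and 4.63 TPM there, against 45.8 to 64.1 TPM elsewhere. Uty, also on the Y chromosome, was less reduced, at 10.57 and 20.02 TPM there against 25.2 to 44.8 TPM elsewhere. Uty was not called in Yap1 Taz null against wild type (adjusted p 0.266 by limma). The Y-linked transcripts were thus reduced unevenly and were not absent. The sex of these mice is not settled, and sex and genotype cannot be told apart in that group. All 12 stem cell markers were expressed, with summed levels of 2235 to 2291 TPM in wild type and 2315 to 2752 TPM in the null libraries. Of 7 megakaryocyte markers 6 reached 1 TPM in some library, and their sum was 1137 to 1272 TPM in wild type and 402 to 588 TPM in the null libraries. Pf4 alone carried that gap, at 816 to 958 TPM in wild type and 94.9 to 222 TPM in the null libraries, while the sum of the rest was 314 to 322 TPM and 257 to 376 TPM, which overlapped. Other summed lists also did not overlap between wild type and null. Of 9 T and NK cell markers 5 reached 1 TPM in some library, and Ncr1 and Gzma were at 0 in all. The sum of the 9 was 159 to 173 TPM in wild type and 88.1 to 138 TPM in null, mostly Nkg7. Without Nkg7 the sum went the other way, at 20.9 to 21.6 TPM in wild type and 24.3 to 61.9 TPM in null. Granulocyte markers (5 of 9, with S100a8 at 0 in all) summed to 119 to 143 TPM and 163 to 428 TPM, nearly all Prtn3, and endothelial markers (5 of 6) to 94.1 to 96.4 TPM and 107 to 143 TPM. Monocyte and dendritic cell markers (4 of 10) summed to 216 to 263 TPM and 191 to 298 TPM, nearly all Lyz2, and the sum without Lyz2 was 4.06 to 15.7 TPM over all libraries. B cell markers (5 of 7) summed to 13.5 to 19.2 TPM and 15.9 to 23.5 TPM, mostly Cd79b, and to 2.13 to 4.78 TPM without it. The part of these markers in the differences described here was not tested. In bulk samples fewer cells of a type and less RNA per cell cannot be told apart.

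Class I promoters are known for a compact set of upstream elements, and those of 6 of the genes are shown because they separate into sets by sequence. The sequences are the RefSeq promoters of build GRCm38.p6, 5′ to 3′ on the strand of the gene, cut from just before the first matched element to the last base before the start. A total of 8 of the 10 symbols matched the table of promoters. Capitals mark 3 motifs, none of which overlaps another. The first is AANNGAAA, the core bound by interferon regulatory factors, which reads TTTCNNTT on the other strand. The second is GGGATTCCC, an NF-kappaB core. The third is the pair TGACG and ATTGG, with 15 to 30 bases between them, the cores of the X and Y elements through which NLRC5 is recruited. All were searched on both strands in windows from 250 bases before to 50 bases after each start, and were picked after these promoters had been seen. The printed stretch of H2-D1 lies at chr17:35262918-35263093 on the plus strand, and that of H2-K1 at chr17:34000348-34000463 on the minus strand. That of H2-M3 lies at chr17:37270127-37270233 and that of B2m at chr2:122147544-122147686, both on the plus strand. That of H2-T3 lies at chr17:36190152-36190283 and that of H2-T23 at chr17:36032702-36032831, both on the minus strand. The stretches of H2-D1, H2-T3 and H2-T23 lie within the extents that the GENCODE annotation gives these genes.
H2-D1: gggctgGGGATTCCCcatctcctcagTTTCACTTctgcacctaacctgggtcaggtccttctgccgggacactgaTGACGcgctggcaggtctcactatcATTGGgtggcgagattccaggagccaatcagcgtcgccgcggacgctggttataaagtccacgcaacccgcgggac
H2-K1: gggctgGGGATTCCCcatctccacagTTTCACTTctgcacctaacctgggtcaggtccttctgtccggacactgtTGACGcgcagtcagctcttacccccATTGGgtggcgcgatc
H2-M3: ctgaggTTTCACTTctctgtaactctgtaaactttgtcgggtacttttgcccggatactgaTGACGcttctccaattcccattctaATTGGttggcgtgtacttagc
B2m: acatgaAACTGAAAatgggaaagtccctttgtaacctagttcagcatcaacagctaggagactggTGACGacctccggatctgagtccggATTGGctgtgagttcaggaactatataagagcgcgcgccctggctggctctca
H2-T3: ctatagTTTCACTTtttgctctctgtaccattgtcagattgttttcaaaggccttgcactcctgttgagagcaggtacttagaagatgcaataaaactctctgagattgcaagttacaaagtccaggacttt
H2-T23: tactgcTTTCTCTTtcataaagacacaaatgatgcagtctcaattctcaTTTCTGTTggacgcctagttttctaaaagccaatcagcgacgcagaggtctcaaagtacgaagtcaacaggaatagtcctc

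The classical promoters of H2-D1 and H2-K1 held all 3 motifs, which 4 of 32851 promoters (0.0122%) did, both H2-K1 entries of the table and that of H2-D1 among them. H2-M3 and B2m held the interferon factor core and the TGACG and ATTGG pair, without the NF-kappaB core. The gap of the pair was 20 bases in H2-D1, H2-K1, H2-M3 and B2m alike. Of all promoters, 0.575% held the pair at any of the gaps searched and 0.0944% held it at a gap of 20. H2-T3 held the interferon factor core once and H2-T23 held it 2 times, and neither matched the other motifs. That core alone was found in 23.9% of all promoters, and GGGATTCCC in 0.353%. The windows of Tap1 and Tapbp matched none of the 3. A match is a string of letters and not a shown binding site, and a missing match says nothing of the factor.

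**Figure D1:**
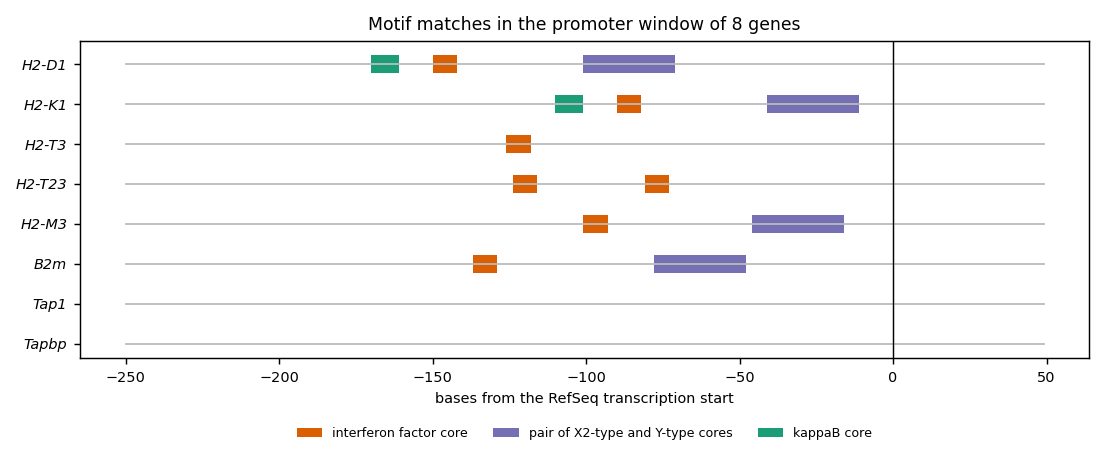
Position of the 3 searched motifs in the promoters of the class I genes, in bases from the RefSeq start (x axis), 1 row per gene. H2-D1 and H2-K1 carry all 3 kinds of motif, H2-M3 and B2m carry the interferon factor core and the pair, and H2-T3 and H2-T23 carry the interferon factor core.

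The classical heavy chains were the most abundant of the 5 heavy chains and stood lower in every null library than in either wild-type library. H2-K1, which lies at chr17:33996017-34000347 in the GENCODE annotation of GRCm38, was at 3423 and 3214 TPM in wild type. It was at 1849 and 1725 TPM in Scribble null, 1904 and 1819.7 TPM in Yap1 Taz null, and 1876 and 1989 TPM in triple null. The wild-type libraries were the highest of the 8, the null libraries lay close together, and the groups did not overlap. The difference from wild type on the log2(TPM + 1) scale was -0.89 in Scribble null, -0.83 in Yap1 Taz null and -0.78 in triple null, each with an SE of 0.097 (n = 2 libraries a group). The mean of the 6 null libraries was 56.1% of the wild-type mean TPM. All 3 differences were called, and the calls were lost in 3 of 15, 6 of 14 and 6 of 15 alternatives to the main fit. Leaving out wild type 1 was among them in each group.

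H2-D1, at chr17:35262730-35267499, was at 1813 and 1967 TPM in wild type. It was at 979 and 777 TPM in Scribble null, 867 and 806 TPM in Yap1 Taz null, and 871 and 816 TPM in triple null. Again every null library was below both wild-type libraries, and the Scribble null pair was the widest apart. The log2(TPM + 1) differences from wild type were -1.11, -1.17 and -1.16 in the same order of groups (SE 0.13), and the null mean was 45.1% of wild type. Each was called, and the calls of H2-D1 were lost in 4 of 15, 4 of 14 and 5 of 15 alternatives. The ratio of H2-K1 to H2-D1 in TPM was 1.89 and 1.63 in the wild-type libraries and ranged from 1.89 to 2.44 in the null libraries. The H2-D1 transcript is 91.2% identical to that of H2-K1 over 1049 aligned bases and 85.2% identical to H2-Q2 over 1160, so reads could have been assigned to either copy.

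H2-T3 had the largest difference among the 10 genes. This gene, at chr17:36185572-36190287, was at 139.7 and 104 TPM in wild type. It was at 6.02 and 2.72 TPM in Scribble null, 2.91 and 6.60 TPM in Yap1 Taz null, and 2.97 and 5.46 TPM in triple null. It therefore ranked 5th and 6th of the 10 genes in the wild-type libraries and last in every null library. The log2(TPM + 1) differences were -4.57, -4.48 and -4.58 (SE 0.45), and the wild-type mean was 27.4 times the null mean. A second deposited table, of the whole series and in an unnamed unit, gave H2-T3 very different wild-type values of 1199 and 37.0, and null values of 1.69 to 5.46 with a median of 2.26. In that table the wild-type libraries still stood above the null libraries but 1 stood far above the other. H2-T3 did not pass the limma test there, at adjusted p-values of 0.117, 0.107 and 0.170 for Scribble null, Yap1 Taz null and triple null.

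H2-T23 went the other way. It encodes Qa-1, the heavy chain that presents leader peptides of classical class I chains to the NKG2A receptor of natural killer cells. At chr17:36029773-36032855, it was at 65.4 and 76.4 TPM in wild type. It was at 171 and 169 TPM in Scribble null, 185 and 180.3 TPM in Yap1 Taz null, and 195 and 223 TPM in triple null. Both wild-type libraries were below all 6 null libraries, and the triple null libraries were the highest. The log2(TPM + 1) differences from wild type were 1.25, 1.36 and 1.55 (SE 0.13), and the null mean was 2.64 times the wild-type mean. Among the 10 genes H2-T23 ranked 7th in the wild-type libraries and 4th in every null library. A gene model named Gm47551, which is 95.7% identical to its transcript, is not among the symbols, so its reads may have been counted with H2-T23.

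H2-M3, which presents N-formylated peptides, was at 34.8 and 34.6 TPM in wild type. It was at 16.0 and 24.9 TPM in Scribble null, 21.04 and 23.9 TPM in Yap1 Taz null, and 20.1 and 32.8 TPM in triple null. The wild-type libraries were again the highest 2 of the 8, with triple null 2 close below them. Differences from wild type in log2(TPM + 1) were -0.77, -0.61 and -0.42 (SE 0.29), and none was called. H2-M3 lies at chr17:37270220-37274484, the far end of the region from H2-K1.

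**Figure D2:**
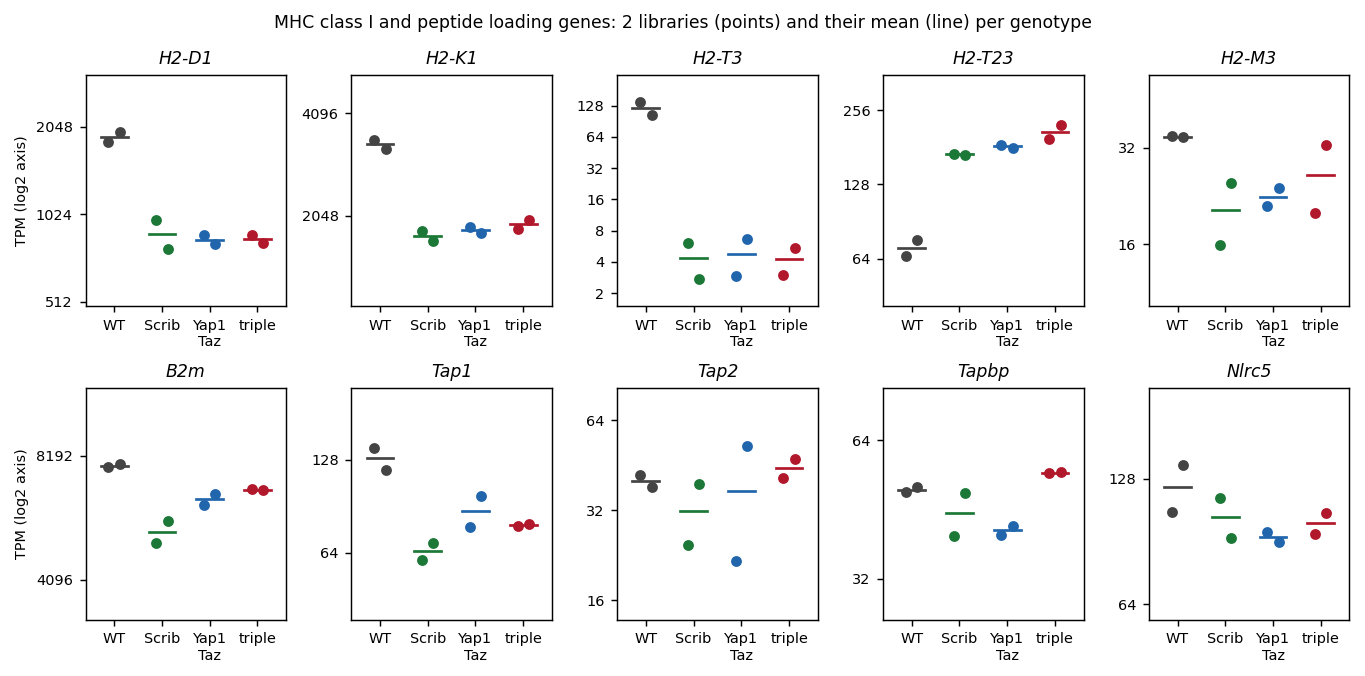
TPM of the 10 class I genes in each library (points, log axis), by genotype, with 2 libraries a group and a bar at the group mean. H2-K1, H2-D1, H2-T3, H2-M3, B2m and Tap1 are highest in the wild-type libraries, H2-T23 is lowest in them, and Tap2, Tapbp and Nlrc5 overlap.

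B2m, the light chain that every class I heavy chain needs to reach the surface, was the most abundant of the 10 genes in all 8 libraries. It was at 7696 and 7812 TPM in wild type, 5024 and 5697 TPM in Scribble null, 6209.5 and 6629 TPM in Yap1 Taz null, and 6806 and 6762 TPM in triple null. All null libraries lay below the wild type, with the Scribble null libraries lowest. The log2(TPM + 1) differences from wild type were -0.54, -0.27 and -0.19 (SE 0.10), and none was called, the adjusted p for Scribble null being 0.0521 by limma. It was called in Scribble null with a pseudocount of 0.1, with median-ratio scaling or without Scribble null 2, at adjusted p-values of 0.0399, 0.0198 and 0.0260. B2m lies at chr2:122147686-122153083, apart from the heavy chains.

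Summed over 19 heavy chain symbols, the level was 6462 and 6366 TPM in the wild-type libraries and 3564 to 4087 TPM in the null libraries. H2-K1 and H2-D1 made up 81.0% and 81.4% of that sum in wild type and 65.9% to 72.2% in the null libraries. The ratio of B2m to summed heavy chain TPM was 1.19 and 1.23 in wild type and 1.28 to 1.73 in the null libraries, so the groups did not overlap. Heavy chains and B2m together took 1.42% of all TPM in each wild-type library and 0.894% to 1.08% in the null libraries.

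Tap1 and Tap2 encode the subunits of the peptide transporter. Tap1, at chr17:34187553-34197225, was at 140.0 and 119 TPM in wild type, 60.7 and 69.0 TPM in Scribble null, 77.4 and 97.6 TPM in Yap1 Taz null, and 77.8 and 79.2 TPM in triple null. Wild type was above every null library, and Scribble null held the lowest values. On the log2(TPM + 1) scale Tap1 differed from wild type by -0.98, -0.56 and -0.71 (SE 0.17), and the call in Scribble null was lost in 13 of 15 alternatives, at adjusted p-values of 0.0526 to 0.258 by limma. Tap2, at chr17:34203527-34216321, was at 42.1 and 38.2 TPM in wild type. It was at 24.5 and 39.1 TPM in Scribble null, 21.6 and 52.5 TPM in Yap1 Taz null, and 40.9 and 47.6 TPM in triple null. The groups overlapped, the Yap1 Taz null libraries being the lowest and the highest of the 8. Its log2(TPM + 1) differences were -0.36, -0.24 and 0.13 (SE 0.39).

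Tapbp, the tapasin gene at chr17:33915899-33929292, was at 49.4 and 50.5 TPM in wild type, 39.7 and 49.02 TPM in Scribble null, 39.8 and 41.6 TPM in Yap1 Taz null, and 54.2 and 54.6 TPM in triple null. The triple null libraries were the highest and the other null libraries were below wild type. Its log2(TPM + 1) differences from wild type were -0.18, -0.29 and 0.12 (SE 0.16). In triple null the differences of both Tap2 and Tapbp changed sign with median-ratio scaling. Nlrc5, at chr8:94434356-94527272, was at 106 and 138 TPM in wild type, 115 and 92.2 TPM in Scribble null, 95.3 and 90.1 TPM in Yap1 Taz null, and 94.6 and 106 TPM in triple null. The groups overlapped, and wild type 2 alone stood apart at the top. Its log2(TPM + 1) differences were -0.23, -0.38 and -0.27 (SE 0.18).

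**Figure D3:**
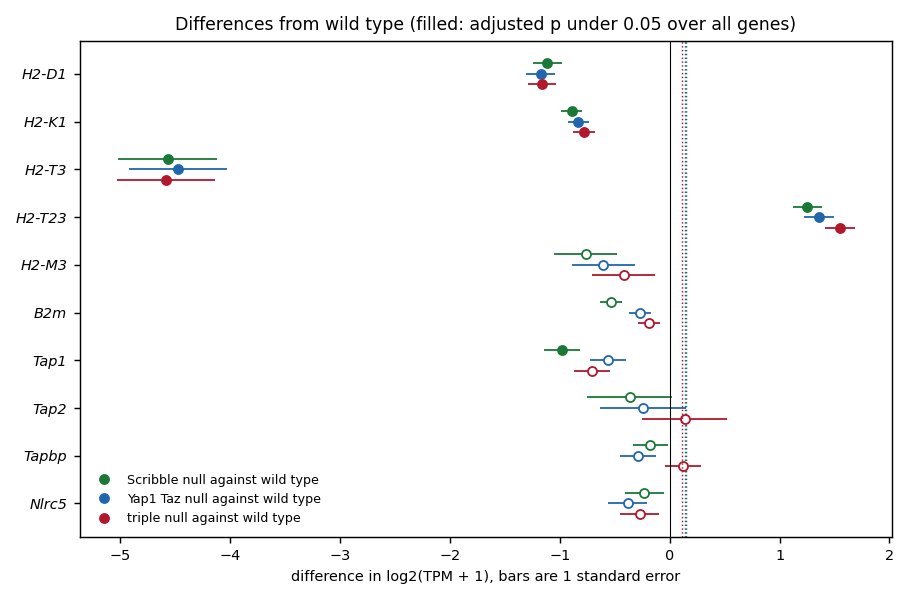
Difference of each null group from wild type in log2(TPM + 1) for the 10 class I genes, with bars of 1 SE from the limma model over 8 libraries. Filled points are called genes and dotted lines are medians of all genes. H2-T3 lies between -4.58 and -4.48, H2-K1 and H2-D1 lie between -1.17 and -0.78, and H2-T23 lies between 1.25 and 1.55.

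Of the 10 genes, 6 had both wild-type libraries above all 6 null libraries (H2-D1, H2-K1, H2-T3, H2-M3, B2m and Tap1), against 4.87% of all genes tested. H2-T23 alone had both below, against 13.1%, and Tap2, Tapbp and Nlrc5 overlapped. In limma's test with Benjamini-Hochberg adjustment, 5 were called in Scribble null against wild type (H2-T3, H2-T23, H2-K1, H2-D1 and Tap1), where 1.30% of genes were called. The same set without Tap1 was called in Yap1 Taz null, where 0.990% of genes were called, and in triple null, where 0.579% were. These shares are given beside counts that the choice of the genes used, so nothing is read from them. Without wild type 1 the calls were 0 in Scribble null, 1 in Yap1 Taz null and 1 in triple null. Without wild type 2 they were 3, 2 and 2. The number of all genes called also fell in each of these fits, so the falls are not particular to the 10 genes. The median log2(TPM + 1) difference over the 10 genes was -0.65, -0.47 and -0.35 in Scribble null, Yap1 Taz null and triple null. For all genes tested the median was 0.14, 0.14 and 0.12. Without both Yap1 Taz null libraries, where Ddx3y, Eif2s3y and Kdm5d were low, 4 of the 10 genes were called in Scribble null and 4 in triple null. Of all 16064 genes tested, 111 and 66 were called there.

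None of the 10 genes was called in triple null against Scribble null, where 0.212% of all genes were, or in triple null against Yap1 Taz null, where 0.181% were. At an unadjusted limma p under 0.05 there was 1 in each, B2m in the first and Tapbp in the second. The share of all genes at that level was not counted. B2m was 0.34 higher in triple null than in Scribble null on the log2(TPM + 1) scale (95% interval 0.11 to 0.57). Tapbp was 0.41 higher in triple null than in Yap1 Taz null (95% interval 0.037 to 0.78). For H2-K1 the intervals were -0.11 to 0.34 against Scribble null and -0.17 to 0.28 against Yap1 Taz null. For H2-D1 they were -0.35 to 0.25 and -0.29 to 0.31, while for H2-T3 they were as wide as -1.05 to 1.02 and -1.14 to 0.93. H2-T23 was 0.30 higher in triple null than in Scribble null (95% interval -0.011 to 0.61).

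Among other heavy chains, 10 of 14 measured symbols were tested, and calls went in both directions. H2-Q2 and H2-Bl fell in all 3 null groups. H2-Q2 was at 16.7 and 19.2 TPM in wild type and at 0.268 to 0.940 TPM in the null libraries, with log2(TPM + 1) differences of -3.37, -3.61 and -3.65 (SE 0.34). It was under 1 TPM in every null library, so it entered the test only through the wild-type libraries. The calls of H2-Q2 are therefore a description and not support for a difference. H2-Bl, annotated as a polymorphic pseudogene, differed by -2.21, -2.64 and -2.68 (SE 0.39). H2-T22, which binds gamma-delta T cell receptors and is the gene next to H2-T23, rose in Scribble null and Yap1 Taz null by 1.22 and 1.44 on that scale (SE 0.22). In triple null it was 1.34 higher, at an adjusted p of 0.0535 by limma. In the series table H2-T22 was at 28.7 and 33.4 in wild type and 36.1 to 62.8 in the null libraries. H2-T10, in the same list, went the other way in mean TPM, at 33.9 in wild type and 15.9 in Scribble null. Its means were 23.3 TPM in Yap1 Taz null and 25.6 TPM in triple null. By library its groups overlapped, and it was not called. Whether reads were divided between H2-T22 and H2-T10 was not tested. Over the 10 tested chains 3, 3 and 2 were called in Scribble null, Yap1 Taz null and triple null, where 1.30%, 0.990% and 0.579% of all genes were, with median differences of -0.34, -0.087 and -0.32. Each of these counts holds H2-Q2. The medians hold it and H2-Q1, which also entered the test only through wild type. Nothing is read from these counts and medians. The H2-Bl calls were lost in 13 of 15, 6 of 14 and 11 of 15 alternatives, leaving out either wild-type library among them. Those of H2-T22 were lost in 13 of 15 and 11 of 14, and in the series table its adjusted p-values were 0.520 and 0.342.

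Of 9 genes for the proteasomes that make peptides for class I, 2 (22.2%) were called in Scribble null and 1 (11.1%) in Yap1 Taz null, all lower, against 1.30% and 0.990% of all genes tested. The log2(TPM + 1) differences from wild type of all 9 were below 0 in all 3 null groups, with medians of -0.71, -0.45 and -0.33. Of all 16064 genes tested, 5999, 5779 and 5936 were below 0. By library Psmb6 overlapped, at 149.8 and 164.7 TPM in wild type and 169.5 TPM in triple null 1. Psmb10 encodes an interferon-induced catalytic subunit of the immunoproteasome. It fell in Scribble null by 0.99 and in Yap1 Taz null by 0.87 (SE 0.13). Its levels were 200.1 and 179 TPM in wild type, 93.3 and 95.6 TPM in Scribble null, 105 and 102 TPM in Yap1 Taz null, and 159 and 142 TPM in triple null. Psme1, a subunit of the PA28 activator, fell in Scribble null by 0.76 (SE 0.11). None of the 9 was called in triple null, where 0.579% of all genes were. In that group 6 had an unadjusted limma p under 0.05. No share of all genes was counted at that level, so nothing is read from the 6. The Psmb10 calls were lost in 5 of 15 and 8 of 14 alternatives and that of Psme1 in 8 of 15, leaving out either wild-type library among them. Among 12 partners of peptide loading 0 were called in any comparison with wild type, where 0.579% to 1.30% of all genes were, so the count does not set them apart. At an unadjusted limma p under 0.05 there were 2, 4 and 0, again without a share of all genes to set beside them. The median differences of the 12 partners were -0.21, -0.17 and 0.0081. Calreticulin (Calr), a chaperone of the loading complex, was at 232 and 202 TPM in wild type and 141 to 223 TPM in the null libraries, which overlapped.

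Of 7 interferon receptor and kinase genes 0 were called against wild type, with median differences of 0.099, 0.0049 and 0.16. Of 9 tested class I-like genes 0 were called against wild type, with medians of 0.22, 0.22 and 0.34. With 0.579% to 1.30% of all genes called, neither count stands apart from the background. At an unadjusted limma p under 0.05 there were 1, 1 and 0 of the receptor and kinase genes and 1, 2 and 3 of the class I-like genes. The share of all genes at that level was not counted, so nothing is read from these counts. Cd1d2, a lipid-presenting CD1 chain, was at 5.18 TPM in both wild-type libraries and at 6.17 to 18.3 TPM in the null libraries, which did not overlap. Within that list Procr, the endothelial protein C receptor used as a stem cell marker, was 1.15 higher in triple null than in Yap1 Taz null (SE 0.15) and was called there, a call lost in 10 of 14 alternatives.

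Class II genes encode the proteins that present peptides to CD4+ T cells. Among the 10 tested, H2-Aa, H2-Ab1 and the invariant chain gene Cd74 fell in all 3 null groups, and 4, 4 and 3 of the 10 were called where 1.30%, 0.990% and 0.579% of all genes were. H2-Aa, a class II alpha chain, was at 1402 and 1507 TPM in wild type, 127 and 105 TPM in Scribble null, 234 and 258 TPM in Yap1 Taz null, and 310 and 304 TPM in triple null (log2(TPM + 1) differences -3.64, -2.56 and -2.24, SE 0.13). It was higher in triple null than in Scribble null by 1.40 and was called there, a call lost without either triple null library (adjusted p 0.0671 and 0.0687 by limma) and with only the groups compared (0.111). H2-Ob, the beta chain of the class II modulator H2-O, rose in Scribble null by 2.19 and in Yap1 Taz null by 1.72 (SE 0.30). Its calls were lost in 6 of 15 and 12 of 14 alternatives, and that of Cd74 in triple null in 8 of 15.

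**Figure D4:**
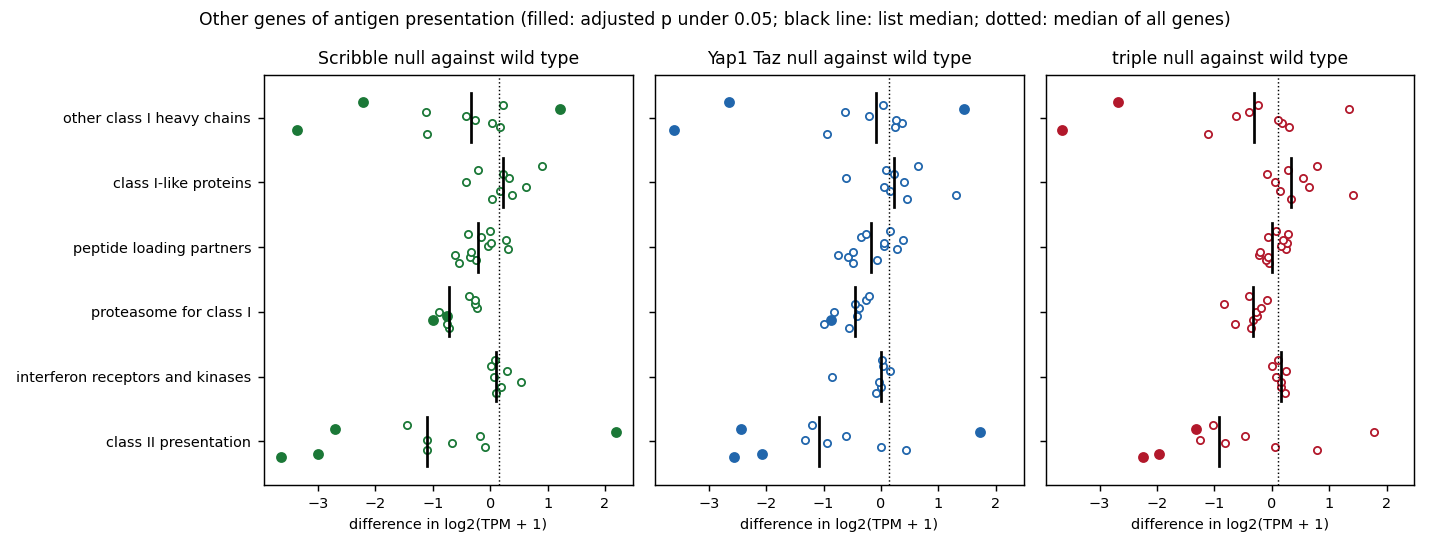
Log2(TPM + 1) difference from wild type of each tested gene in 6 lists (points), by null group, with called genes filled, list medians as black lines and the median of all genes dotted. All 9 proteasome genes lie below 0 in the 3 groups, while the heavy chain and class II lists hold genes on both sides of 0.

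Of the 10 genes, 8 lie on chromosome 17 between 33915899 and 37274484, a stretch of 3.36 Mb that is the mouse MHC. Besides them, 141 tested genes lie in the stretch. Of the 24 other genes there with an H2 symbol, 41.7% were called in Scribble null, 37.5% in Yap1 Taz null and 29.2% in triple null. Of the 117 genes there without an H2 symbol, 2.56%, 1.71% and 0.855% were called, and for the rest of the genome the shares were 1.21%, 0.909% and 0.493%. Called in all 3 null groups besides the listed genes were H2-K2, H2-Ab1, H2-Aa, H2-Ea-ps, H2-Q2, H2-Bl and H2-T-ps, all of them lower in the null libraries. H2-Q2, which entered the test only through the wild-type libraries, is also in the shares of the 24 other H2 genes. The H2-Ea gene of C57BL/6 mice is known for a promoter deletion, and MHC alleles differ widely between mouse strains. The labels give C57BL/6 for all 8 libraries. Whether all of them carry the same MHC alleles was not tested. Allele and genotype cannot be told apart for H2-T3, H2-Q2, H2-Bl, H2-T23 or the other H2 genes here. The same holds for Tap1, Tap2 and Tapbp, which lie in the same stretch, and for every other gene there, whichever list it is in.

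**Figure D5:**
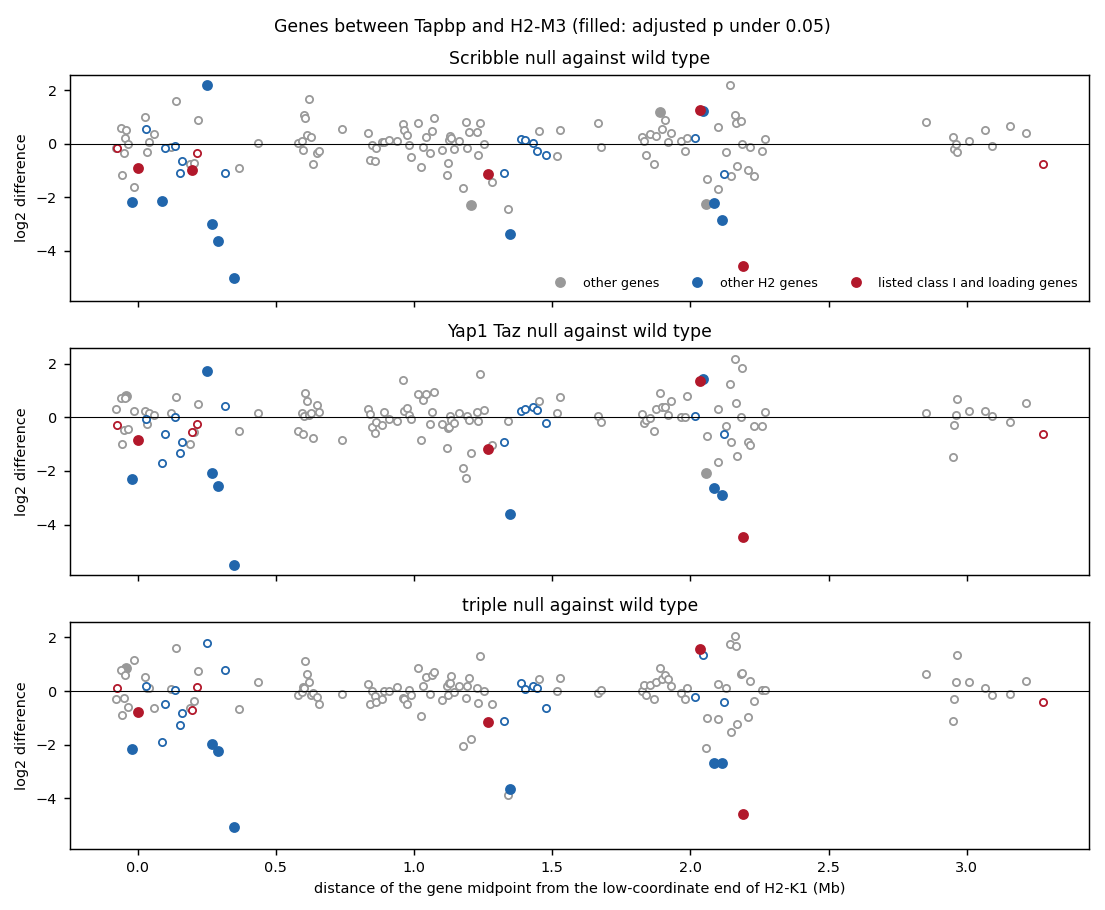
Log2(TPM + 1) difference from wild type of the tested genes on chromosome 17 by distance from the low-coordinate end of H2-K1 (Mb), 1 panel per null group. Filled points are called genes. They are mostly listed genes and other H2 genes, in both directions, while 2.56%, 1.71% and 0.855% of the 117 genes without an H2 symbol are filled.

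Genes whose pattern over the 8 libraries was nearest to each of these were named by the root mean square difference of centred log2(TPM + 1), among 11064 genes with a mean of at least 5 TPM, for genes spanning at least 1 on that scale. Nearest to H2-D1 were H2-K1 at 0.17, the interferon-induced GTPase gene Gbp7 at 0.20 and Snrnp25 at 0.20. Gbp7 was at 79.6 and 90.1 TPM in wild type and at 45.02 to 53.3 TPM in the null libraries. Nearest to H2-T3 were the gene models Gm12191 at 0.45 and Gm10243 at 0.58, with H2-Ea-ps at 0.55 between them. Gm12191 was at 3948 and 3911 TPM in wild type and 98.8 to 227 TPM in the null libraries. Nearest to H2-T23 were Eps8 at 0.16, Ets1 at 0.17 and Hmga1 at 0.18. For Tap1 they were Aqp1, Atp5g1 and Mrps27, for Tap2 Btd, Usb1 and Mbd1, and for H2-M3 Hrh2, Nelfe and Pno1, all at 0.13 to 0.14. H2-K1, B2m, Tapbp and Nlrc5 spanned less than 1 and were not given neighbours.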

How the data were processed

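RNA of 8 sorted stem cell libraries was amplified with Ovation RNA-Seq v2 and made into Nextera XT libraries, per the labels' protocols. TPM per gene symbol was deposited by the authors for each library. The submitters' processing notes name TopHat, without a version, and mm10; the quantifier is not given in the sources used here. These values keep no depth, and gains of some genes lower others. A further deposited table by the authors, holding the whole series in another, unnamed unit, served as an alternative; 27458 of its 28987 identifiers (94.7%) had a symbol.

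Values were tested as log2(TPM + 1) in limma 3.58.1 (R 4.3.3) with a variance trend, over the 16064 genes at 1 TPM or more in 2 or more of 8 libraries. The model had 1 mean per group, Benjamini-Hochberg adjustment ran over the genes of each comparison, and an adjusted p under 0.05 was a call. A change on this scale understates that of low genes. GENCODE M21 gave coordinates, RefSeq gave promoters, and BLAST 2.17.0 compared transcripts at 95% identity and 80% cover.

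The genes and lists were chosen with earlier results of these data known. From each list the genes called against wild type were named, at most 4, or otherwise the 2 with the smallest p, and the 3 nearest genes in pattern. Genes named from the MHC stretch were chosen after their values were seen. Alternatives were another pseudocount, filter, scaling, table and set of libraries, a replicate block, and leaving out each library. The experiment numbers in the labels did not pair the libraries (correlations of deviations between groups from -0.053 to 0.026). A few results that this rule selects are not reported here.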

Additional observations from a re-analysis of the deposited data

How the results depend on the processing

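No difference changed sign among those called. Over the alternatives, 658 differences of the 10 class I genes kept their call or stayed within the spread of the libraries, 52 lost their call, 3 gained one and 17 moved further. For the other named genes 276 kept their call and 119 lost it. The 209 genes called in Scribble null against wild type became 50 with only the groups compared in the fit, 110 with the replicate block, 101 in the series table and 111 without both Yap1 Taz null libraries, an alternative chosen after seeing the data. The 159 called in Yap1 Taz null became 56 with only the groups compared and 105 in the series table, and the 93 of triple null became 58 with only the groups compared. Triple null against Scribble null, with 34, gave 82 with no filter, 11 with only the groups compared and 20 in the series table. Triple null against Yap1 Taz null, with 29, gave 73 with no filter, 6 with only the groups compared, 14 with the replicate block and 15 in the series table. Of the class I genes called, the 5 in Scribble null became 1 with no filter, 1 with only the groups compared and 3 in the series table. The 4 in Yap1 Taz null became 1 with no filter, and the 4 in triple null became 1 with no filter and 2 in the series table. The cause was not tested. Leaving out 1 library at a time gave 47 to 221 genes called in Scribble null, 53 to 134 in Yap1 Taz null, 39 to 85 in triple null, 19 to 61 in triple null against Scribble null and 9 to 21 in triple null against Yap1 Taz null. The class I genes called then numbered 0 to 5, 1 to 4 and 1 to 4 against wild type, and 0 to 0 in both comparisons between null groups. A group left with 1 library is assumed to vary like the others. Median-ratio scaling moved the median of all genes from 0.14, 0.14 and 0.12 to -0.0046, -0.010 and -0.0075. It changed the calls higher and lower from 95 and 114 to 60 and 218 in Scribble null, from 76 and 83 to 36 and 96 in Yap1 Taz null, from 36 and 57 to 25 and 67 in triple null, and from 11 and 18 to 12 and 12 in triple null against Yap1 Taz null. Under it Tap2 and Tapbp in triple null were at -0.0039 and -0.019. With the replicate block the call of Tap1 in Scribble null was lost (adjusted p 0.0666 by limma), while the other class I calls against wild type held. Summing H2-T23 with its near-identical copy was not run, since that copy is not among the symbols. With 2 libraries a group and no read depth, small differences were not detectable.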
